A study of Rattus norvegicus with 224 samples.

Results

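Rapamycin and paclitaxel, each at the highest dose of its series, were compared in cultured rat aortic smooth muscle cells after 6 h of treatment. Arrays were chosen by the drug, dose and hour in their titles, which gave 16 arrays of 100 ng/mL rapamycin and 16 of 1000 ng/mL paclitaxel, 32 of the 224 arrays in the series. The top doses are not matched, since paclitaxel was given at the higher mass concentration. The cells were explanted from the aortas of newborn rats and were made quiescent in low serum before treatment. Each drug arm held 4 arrays in each of 4 combinations, that is 100 nM insulin or its vehicle, in 25 or 5 mM glucose, with 1 array per combination in each of 4 runs, named A, B, C and D. A further 16 arrays at 6 h, with the solvent DMSO and the same 4 combinations, served as the common control. The sources give different dish sizes, serum levels and durations of quiescence, and none says that a run stands for its own animals or cultures. The p-values below therefore measure the spread between these arrays, which may be technical.

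Rapamycin binds the immunophilin FKBP12, and the complex inhibits mTOR complex 1, a kinase that couples nutrients and insulin to protein synthesis, ribosome production and entry into the cell cycle. Paclitaxel binds the tubulin polymer and stabilises microtubules, which blocks mitosis in dividing cells and alters the pool of free tubulin. Cells adjust the stability of tubulin messenger RNA to that pool. Both drugs are released from coronary stents to limit the growth of smooth muscle cells into the vessel lumen.

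Each array measured the same 11575 features as a ratio of the cells, labelled with Cyanine-5, to pooled newborn rat RNA, labelled with Cyanine-3. The deposited values are scores with a mean of 0 and an SD of 1 in each array, so every difference below is in array SDs and is no log2 fold. A score above 0 lies above about the feature's own average in the series, so levels cannot be compared between genes and cannot show that a cell type's markers are absent. Higher likely means more RNA in the cells, from the dyes in the labels. If the ratio ran the other way, every direction below would turn, with sizes and counts kept. Among the 48 arrays used here the lowest correlation between arrays was -0.32, and 0.177% of pairs lay under -0.3. No pair of these arrays was nearly identical, with a highest correlation of 0.539. The number of arrays limited the precision, and the median SE of a difference between the drugs was 0.286. In these bulk cultures, fewer cells of a kind and less RNA per cell cannot be told apart.

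Rapamycin cells differed from paclitaxel cells in 778 features, which is 6.72% of those tested, by limma at a Benjamini-Hochberg adjusted p under 0.05. Of these, 461 features (3.98%) were higher and 317 (2.74%) lower with rapamycin. The features that were called had a median difference of 1.10 on the higher side and -1.05 on the lower side, against a median of -0.03 over all features. The drug difference had 1 sign in all 4 runs for 739 of the called features and in all 4 combinations of insulin and glucose for 704. Counted over the 16 pairs of arrays with the same run, insulin and glucose, 274 of the higher and 178 of the lower features kept their direction in 14 or more pairs. The features were called on these same arrays, so these counts of agreement follow in large part from that choice and are a description only. Among named genes, with the first feature of each, 260 were higher and 193 lower, and 268 called features had no gene symbol here. With the 4 run means as the unit, 265 features were called, 243 of them among the 778. Leaving out a run gave between 380 calls without run A and 668 without run B, with 420 without run C and 496 without run D. Of the 68 called genes that the naming rule took, 37 kept their call without run A, 51 without run B, 42 without run C and 46 without run D.

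The separation of the drugs was widest for Tsc22d3, which encodes a leucine zipper protein induced by glucocorticoids and by FOXO factors. Its score ran from 1.11 to 5.10 in the 16 rapamycin arrays (median 3.51), against -3.39 to -1 in the 16 paclitaxel arrays (median -1.97) and -3.32 to 0.639 in the DMSO arrays (median -1.06). Every rapamycin array lay above every paclitaxel array. The difference between the drugs was 5.63 ± 0.428 (SE, limma adjusted p = 5.64e-24). Over all features, 6 (0.0518%) had drug groups that did not overlap. They were those of Tsc22d3, Cd55 and Klf10, 1 of several features of Klf6, the other feature of Pck2, and 1 feature with no gene name. These 6 features were picked after their values were seen.

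Cd55, which encodes a membrane protein that protects cells from complement, followed with a difference of 5.40 ± 0.614. Its scores were 0.618 to 4.70 with rapamycin (median 2.63), -4.56 to 0.344 with paclitaxel (median -2.83) and -5.03 to 0.936 with DMSO (median -0.879). Gjb2, a connexin gene, differed by 4.35 ± 0.802, with 6 of 16 rapamycin arrays above the highest paclitaxel array. Cspg4, which encodes the NG2 proteoglycan of the cell surface, differed by 3.98 ± 0.402 and was higher in 16 of 16 pairs. Kcnn4, a calcium-activated potassium channel gene, differed by 2.70 ± 0.381, and Inhbb, which encodes an activin subunit, by 2.58 ± 0.424. Rhpn2 differed by 2.42 ± 0.348, Trim47 by 2.40 ± 0.351 and the annexin partner S100a10 by 2.31 ± 0.469. Lmcd1, which encodes a LIM domain protein of muscle, had a difference of 3.84 ± 1.17 (adjusted p = 0.0253), but its arrays ran from -4.76 to 6.80 with rapamycin and from -9.55 to 4.39 with paclitaxel. Its call was lost without run A (adjusted p = 0.339) and without run C (adjusted p = 0.107). Ppm1n, a phosphatase gene, was called at an adjusted p of 0.0498 and kept its call in 4 of 14 alternative settings.

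**Figure D1:**
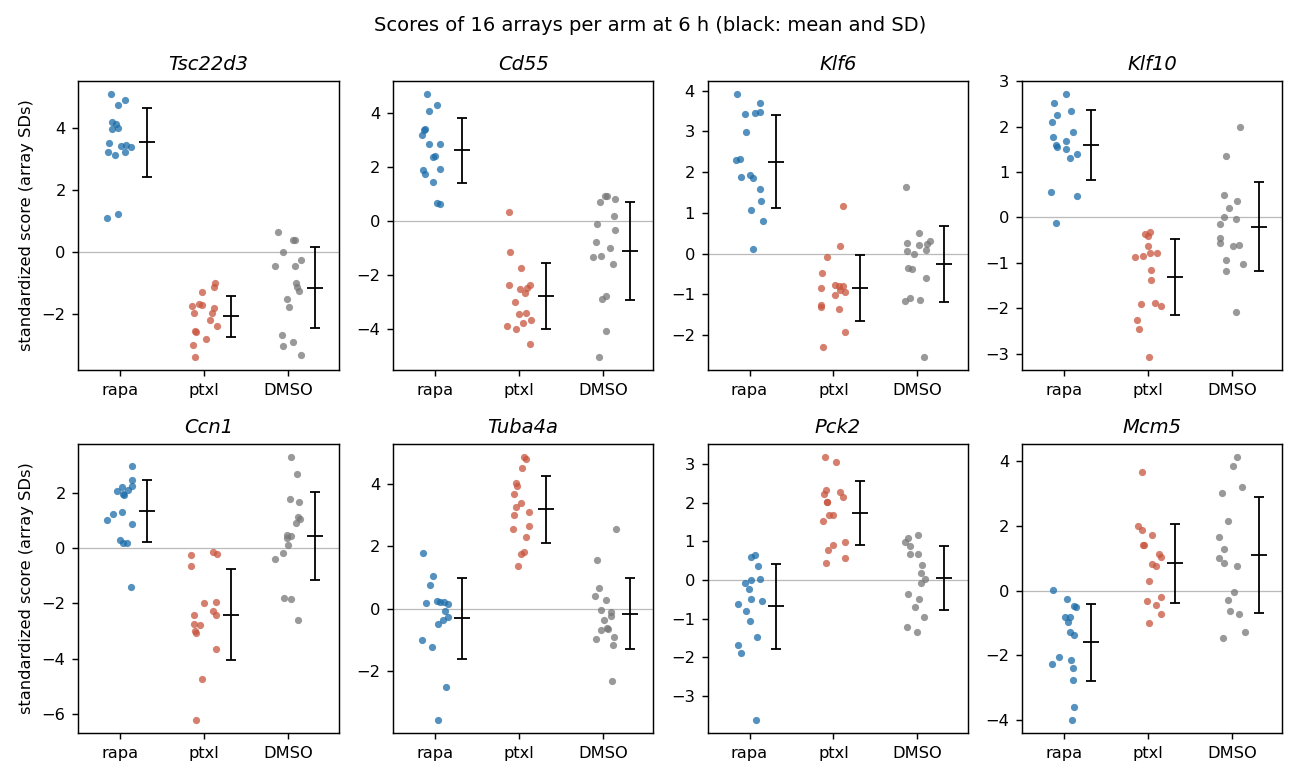
Standardized scores (y axis, array SDs) of 8 genes in the 16 arrays of rapamycin (rapa, 100 ng/mL), paclitaxel (ptxl, 1000 ng/mL) and DMSO at 6 h, 1 point per array, with the mean and SD in black beside each arm. The drug arms do not overlap for Tsc22d3, Cd55 and Klf10, while the paclitaxel mean of Ccn1 lies below and that of Tuba4a above the DMSO mean, and the rapamycin mean of Mcm5 lies below it, with arrays that overlap those of DMSO in all 3 genes.

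Each drug was also set against the DMSO arrays, and since these comparisons share their 16 control arrays, their values are only given side by side. Rapamycin at 100 ng/mL differed from DMSO in 588 features (5.08%), 336 higher (2.9%) and 252 lower (2.18%). Paclitaxel at 1000 ng/mL differed from DMSO in 34 features (0.294%), 19 higher (0.164%) and 15 lower (0.13%). Of the 461 features higher with rapamycin than with paclitaxel, 229 were also called higher in rapamycin cells than in DMSO cells, 11 were called lower in paclitaxel cells than in DMSO cells, with 2 features in both counts, and 223 were called in neither. Of the 317 lower features, 121 were called lower with rapamycin than with DMSO, 19 were called higher with paclitaxel than with DMSO, and 177 were called in neither. The median differences from DMSO of the 461 features were 0.836 with rapamycin and -0.308 with paclitaxel, and those of the 317 were -0.752 and 0.277 in the same order of drugs. These medians follow from how the features were chosen and are a description only. Leaving out a run gave between 212 calls (without run A) and 482 for rapamycin against DMSO, with 237 without run D and 308 without run C. For paclitaxel against DMSO it gave 9 without run A, 10 without run C, 12 without run D and 22 without run B.

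**Figure D2:**
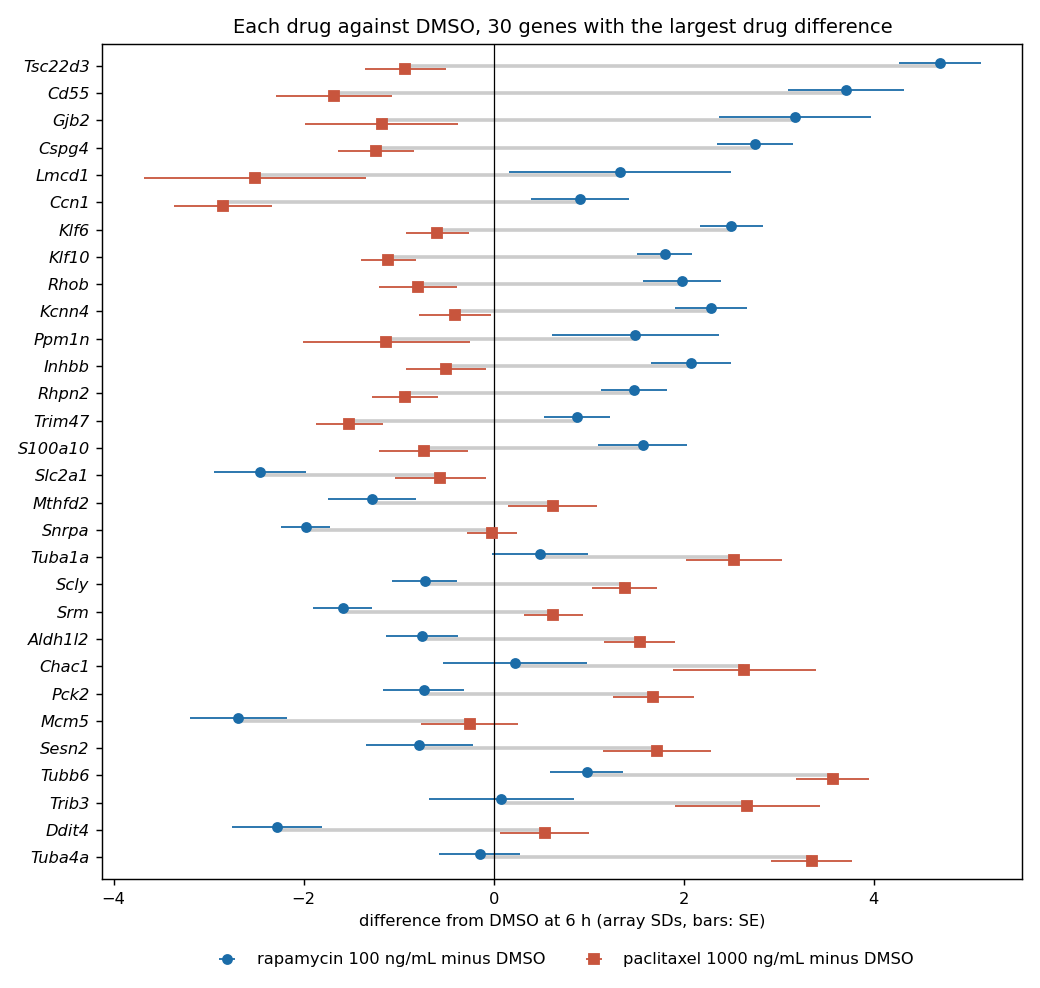
Difference from DMSO at 6 h (x axis, array SDs, bars are SE) of 100 ng/mL rapamycin (blue circles) and 1000 ng/mL paclitaxel (red squares) for the named genes with the largest rises and falls of rapamycin against paclitaxel. Grey lines join the drugs. The tubulin genes Tuba4a, Tubb6 and Tuba1a, and also Trib3 and Chac1, have their paclitaxel point far to the right. Mcm5, Slc2a1, Ddit4 and Snrpa have their rapamycin point far to the left.

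Tubulin genes were lower in rapamycin cells than in paclitaxel cells. Of 7 measured tubulin genes, 6 fell and none rose, against 2.74% of all features that were lower, with a median difference of -1.75 against -0.03 over all features. This list and those below were chosen with earlier results of these data known. Their counts beside the share over all features are therefore a description only. Their median difference from DMSO was 0.075 with rapamycin and 2.02 with paclitaxel, where 5 of 7 were called higher. Tuba4a, an alpha-tubulin gene, had scores of -3.56 to 1.78 with rapamycin (median 0.034), 1.36 to 4.87 with paclitaxel (median 3.18) and -2.30 to 2.57 with DMSO (median -0.285). All but 1 of the rapamycin arrays, 15 of 16, lay below the lowest paclitaxel array, and the difference was -3.49 ± 0.425 (adjusted p = 5.29e-11). Tubb6, a beta-tubulin gene, differed by -2.59 ± 0.383, and stood 3.57 ± 0.383 above DMSO in paclitaxel cells (adjusted p = 6.43e-13). Tuba1a differed by -2.04 ± 0.509, Tubb5 by -1.75 ± 0.413 and Tuba8 by -1.53 ± 0.468. The gamma-tubulin gene Tubg1, whose product seeds microtubules at the centrosome, fell by 1.22 ± 0.252, and Tubb2b had a difference of 0.0367 (adjusted p = 0.977). Tuba8 lost its call without run A, B or C, Tubb5 without run A and Tuba1a without run B. With the 4 run means as the unit, 3 of the 7 were called. In run D alone the difference was -1.58 for Tuba4a, -0.696 for Tubb5, -0.486 for Tubb6, -0.44 for Tuba1a and -0.274 for Tuba8. For each of these genes it was the smallest in size of the 4 runs, and Tuba1a had -3.97 in run B alone. Among 22 other genes of microtubule binding and tubulin folding, 1 rose, a share near the 3.98% of all features that were higher. It was Map6, a microtubule stabiliser known from neurons (1.66 ± 0.350). Stmn1, which encodes the tubulin-sequestering protein stathmin, had a difference of -0.383 ± 0.462 (adjusted p = 0.768).

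Immediate early genes, which are switched on within minutes by growth factors and stress, were higher in rapamycin cells than in paclitaxel cells. Of 17 measured, 9 rose and none fell, against 3.98% of all features that were higher, with a median of 1.31. Against DMSO the list had a median of 0.538 with rapamycin (6 called higher) and -0.371 with paclitaxel (1 called lower). The Krüppel-like factor gene Klf6 had scores of 0.106 to 3.92 with rapamycin (median 2.12), -2.29 to 1.16 with paclitaxel (median -0.87) and -2.54 to 1.63 with DMSO (median 0.033), a drug difference of 3.09 ± 0.332. A group of 13 rapamycin arrays lay above the highest paclitaxel array. Its relative Klf10, induced by TGF-beta, differed by 2.91 ± 0.288 (adjusted p = 1.05e-15), and Klf4, which represses smooth muscle differentiation genes, by 2.26 ± 0.359. Klf4 was 2.25 ± 0.359 above DMSO with rapamycin and -0.006 ± 0.359 from it with paclitaxel. Rhob, which encodes a rapidly induced small GTPase, differed by 2.77 ± 0.412 between the drugs. The AP-1 gene Fos differed by 2.24 ± 0.640, and its difference from DMSO was -0.133 with rapamycin and -2.37 with paclitaxel. The transcription factor gene Egr1 differed by 1.77 ± 0.567, Zfp36, whose product destabilises messenger RNAs, by 1.96 ± 0.345, Ier2 by 1.31 ± 0.299 and Jund by 1.19 ± 0.376. The AP-1 gene Jun (0.629) and Myc (0.301) did not pass the test. Klf4, Klf6 and Klf10 also stand among 16 measured FOXO targets, where Tsc22d3 was the 4th gene that rose and the mitophagy gene Bnip3 (-1.70 ± 0.512) the 1 gene that fell.

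Genes regulated by the mechanosensitive factors YAP and SRF had a median difference of 0.579, with 11 members above 0 and 5 below. Of the 16, 4 rose and none fell, against 3.98% of all features that were higher. Their median difference from DMSO was -0.183 with rapamycin, where 1 was called higher and 1 lower. With paclitaxel it was -0.743, where 2 were called lower. Ankrd1 had a drug difference of -0.707 (adjusted p = 0.544), and differed from DMSO by -2.13 with rapamycin (adjusted p = 0.0041). Ccn1, which encodes a matricellular protein that binds integrins, had scores of -1.42 to 2.98 with rapamycin (median 1.61), -6.22 to -0.136 with paclitaxel (median -2.42) and -2.62 to 3.29 with DMSO (median 0.453). A group of 15 rapamycin arrays lay above the highest paclitaxel array, and the difference was 3.76 ± 0.516 (adjusted p = 5.76e-09). Against DMSO, Ccn1 differed by 0.912 ± 0.516 with rapamycin (adjusted p = 0.391) and by -2.85 ± 0.516 with paclitaxel (adjusted p = 0.000367). Its relative Ccn2, connective tissue growth factor, had a drug difference of 0.838 ± 0.390 that did not pass the test (adjusted p = 0.224), although it was 1.60 ± 0.390 below DMSO in paclitaxel cells (difference -1.60, adjusted p = 0.032). Lats2, which encodes a kinase that restrains YAP, rose by 1.42 ± 0.263, the focal adhesion gene Vcl by 1.06 ± 0.319 (call lost without run A or D) and Srf itself by 0.778 ± 0.262. Without run A or without run D, 2 of the 16 were called. Of 17 contractile genes, 1 rose, Vcl, with a list median of 0.45. Tagln, which encodes the actin-binding protein transgelin, had a difference of 1.18 ± 0.527 (adjusted p = 0.197) and the light chain gene Myl9 one of 1.27 ± 0.428 (adjusted p = 0.0506).

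Sterol synthesis genes were higher in rapamycin cells than in paclitaxel cells for 15 of 16 measured genes, with a median of 1.24, and 6 passed the test, against 3.98% of all features that were called higher. The median difference from DMSO was 0.304 with rapamycin and -0.791 with paclitaxel, and no member was called in either of those comparisons. Cyp51, which demethylates lanosterol, had scores of -0.775 to 4.21 with rapamycin (median 0.931), -3.71 to 0.568 with paclitaxel (median -1.11) and -2.44 to 3.22 with DMSO (median -0.169). It was higher with rapamycin in 16 of 16 pairs, by 2.03 ± 0.524 (adjusted p = 0.0054). Acat2, which makes acetoacetyl-CoA, rose by 1.52 ± 0.483, Sc5d, a desaturase of the last steps, by 1.36 ± 0.409, the phosphomevalonate kinase gene Pmvk by 1.35 ± 0.330, the sterol isomerase gene Ebp by 1.32 ± 0.339, and Lss, which closes the sterol rings, by 0.976 ± 0.326. The transcription factor gene Srebf2 had a difference of -0.131 (adjusted p = 0.869). The count fell to 1 gene without run A and to 2 without run C, which also leaves fewer arrays, and the cause was not tested. The calls of Cyp51 (without run C), Sc5d (without run A, B or C) and Acat2 (whichever 1 of the 4 runs was left out) were among those lost. Of 14 fatty acid synthesis genes, 0 were called.

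**Figure D3:**
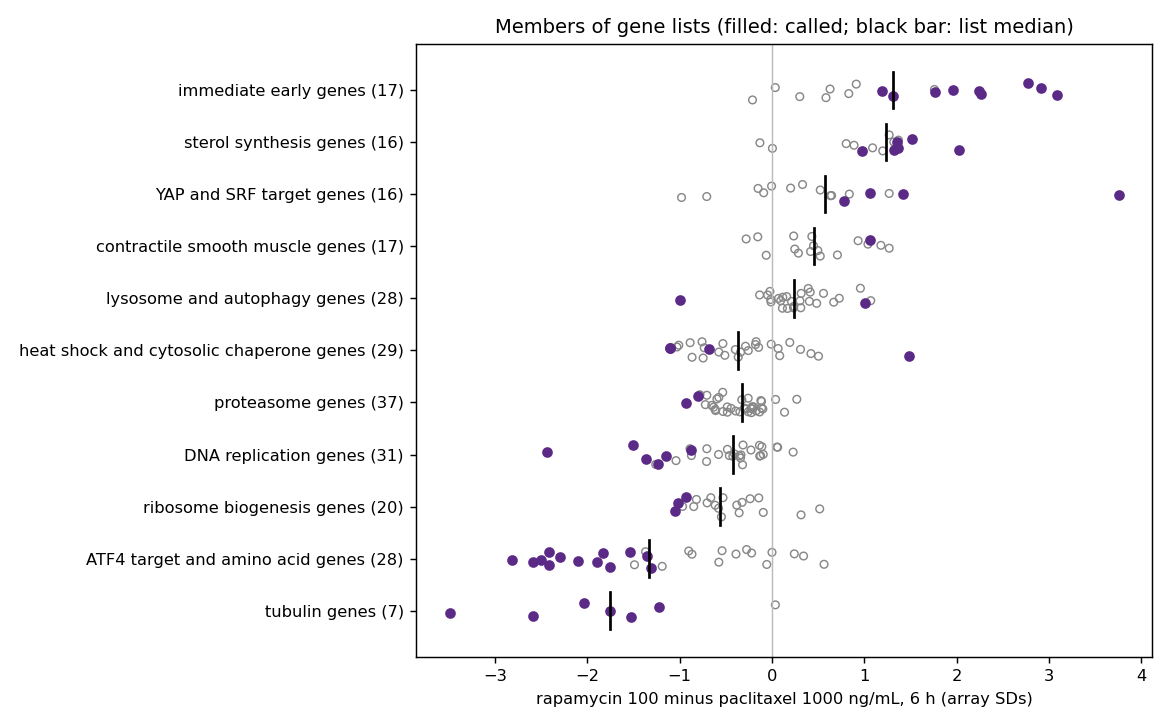
Difference of 100 ng/mL rapamycin minus 1000 ng/mL paclitaxel at 6 h (x axis, array SDs) for each measured member of 11 gene lists, with the number measured in brackets, filled points called by limma, and a black bar at the list median. Immediate early and sterol synthesis genes sit to the right of 0, and the ATF4 target and tubulin genes to the left.

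Genes of a list of ATF4 targets and amino acid genes were lower in rapamycin cells than in paclitaxel cells. ATF4 induces its targets when amino acids are short or proteins misfold, and the list also holds Atf4 itself and the kinase gene Eif2ak3. Of 28 measured genes, 13 fell and none rose, against 2.74% of all features that were lower, with a median of -1.33. The members were chosen with earlier results of these data known, so this count is a description only. The median difference from DMSO was -0.2 with rapamycin, where 2 members were called lower, and 0.711 with paclitaxel, where 4 were called higher. Pck2, the mitochondrial form of phosphoenolpyruvate carboxykinase, had scores of -3.62 to 0.637 with rapamycin (median -0.512), 0.443 to 3.19 with paclitaxel (median 1.85) and -1.35 to 1.18 with DMSO (median 0.104). It was lower with rapamycin in 16 of 16 pairs, by 2.42 ± 0.425 (difference -2.42, adjusted p = 8.9e-06), and its other feature gave -3.72. In paclitaxel cells it was 1.68 ± 0.425 above DMSO (adjusted p = 0.0425).

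Ddit4, whose product restrains mTOR complex 1, had scores of -4.55 to -0.291 with rapamycin (median -1.95), -2.15 to 2.77 with paclitaxel (median 0.533) and -1.79 to 1.92 with DMSO (median 0.095). It was lower than with paclitaxel in 15 of 16 pairs (-2.82 ± 0.473), and it differed from DMSO by -2.28 ± 0.473 with rapamycin and 0.536 ± 0.473 with paclitaxel. Sesn2, another inhibitor of mTOR complex 1, differed between the drugs by -2.50 ± 0.564 and from DMSO by -0.781 with rapamycin and 1.72 with paclitaxel, neither of which passed the test. Trib3, a pseudokinase gene (-2.59 ± 0.763), and Chac1, which degrades glutathione (-2.42 ± 0.754), stood 0.0795 and 0.226 from DMSO with rapamycin and 2.67 and 2.64 from it with paclitaxel, at an adjusted p of 0.0977 for each of these paclitaxel differences. Mitochondrial one-carbon genes fell too, with -2.30 ± 0.375 for Aldh1l2 and -1.90 ± 0.467 for Mthfd2 (call lost without run A), as did Phgdh of serine synthesis (-1.83 ± 0.483) and the selenocysteine lyase gene Scly (-2.10 ± 0.342). The amino acid transporters Slc38a2 (-1.75 ± 0.469) and Slc1a5 (-1.31 ± 0.323), the kinase gene Eif2ak3 (-1.35 ± 0.258) and Atf4 itself (-1.54 ± 0.473) completed the 13. Slc38a2 was, with Ddit4, called lower with rapamycin than with DMSO (-1.54, adjusted p = 0.0324), and Aldh1l2 (1.54), Scly (1.38) and Eif2ak3 (1.23) were, with Pck2, called higher with paclitaxel than with DMSO. Asparagine synthetase, Asns, had a difference of -0.902 ± 0.363 that did not pass the test (adjusted p = 0.13). Without run A, 7 of the 28 were called. The calls of Trib3 and Chac1 were lost without run A (adjusted p = 0.128 and 0.131) and without run C (adjusted p = 0.0697 and 0.162), and also without run D for Trib3 (adjusted p = 0.0666) and without run B for Chac1 (adjusted p = 0.0767).

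DNA replication genes had a median difference of -0.424 between the drugs, and 6 of 31 fell while none rose, against 2.74% of all features that were lower and an overall median of -0.03. Their median difference from DMSO was -0.631 with rapamycin, where 7 were called lower, and -0.072 with paclitaxel, where 0 were called. Mcm5, a subunit of the replicative helicase, had scores of -3.98 to 0.03 with rapamycin (median -1.31), -0.99 to 3.66 with paclitaxel (median 0.922) and -1.45 to 4.12 with DMSO (median 0.922). The arms overlapped, with 9 rapamycin arrays below the lowest paclitaxel array, and the drug difference was -2.44 ± 0.512 (adjusted p = 0.000325). The licensing factor gene Cdt1 fell by 1.51 ± 0.353, the helicase subunit gene Mcm6 by 1.37 ± 0.395, the origin recognition gene Orc6 by 1.24 ± 0.350, the flap nuclease gene Fen1 by 1.15 ± 0.329 and the primase gene Prim1 by 0.882 ± 0.293. The sliding clamp gene Pcna had a difference of -0.709 ± 0.276 (adjusted p = 0.112). Without run A 1 of the 31 was called and without run B 3, and the Mcm5 call was lost without run A (adjusted p = 0.0566) and that of Mcm6 without run A or D. Of 27 mitosis genes, 1 fell, a share near the 2.74% of all features, with a list median of -0.32. It was Gtse1, which encodes a microtubule-associated regulator of p53 (-1.68 ± 0.404), and its call was lost without run A (adjusted p = 0.0971) and without run C (adjusted p = 0.0934). Of 8 cell cycle inhibitor and G1 cyclin genes, 2 fell, Cdk2 (-1.12 ± 0.293, call lost without run B) and the inhibitor gene Cdkn1a (-1.01 ± 0.3, call lost without run A, C or D), while Cdkn1b had -0.666 ± 0.297 (adjusted p = 0.192). Cdkn1a was also 1 of the 4 p53 targets of 15 that fell, with Ccng1 (-1.28 ± 0.347, call lost without run A or B), Ddit4 and Sesn2. With the 4 run means as the unit, the calls of Gtse1, Cdk2 and Cdkn1a were lost too (adjusted p = 0.0787, 0.115 and 0.0732).

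Short promoter stretches of called members that hold a sequence element known for their list are shown so that the element can be seen beside the differences above. They come from the RefSeq table of build GRCr8, which covers 250 bases before and 50 after each gene's start, and capitals mark the matched letters. The motif TGATGNAAN stood for the amino acid response element that ATF4 binds, and GTTGCATCA, GTTACATCA and TTTACATCA below are its matches on the opposite strand. It was found on either strand in 4.14% of the windows of 27457 genes, in 7 of the 25 ATF4 list members with a window, and in 3 of the 11 that were called.
Chac1, chr3:126795943-126795991, plus strand: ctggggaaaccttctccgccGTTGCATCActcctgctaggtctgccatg
Pck2, chr15:32997603-32997641, plus strand: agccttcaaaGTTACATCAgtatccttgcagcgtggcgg
Trib3, chr3:161275534-161275575, minus strand: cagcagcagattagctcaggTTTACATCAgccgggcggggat

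An E2F site, TTTGGCGC on either strand, was found in 0.554% of all windows, in 5 of the 26 replication genes with a window, and in 3 of the 6 that were called: Mcm5, Mcm6 and Cdt1. The Cdt1 match lies after the start of transcription and is not printed.
Mcm5, chr19:13488584-13488631, plus strand: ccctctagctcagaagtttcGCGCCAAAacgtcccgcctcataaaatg
Mcm6, chr13:42404464-42404511, minus strand: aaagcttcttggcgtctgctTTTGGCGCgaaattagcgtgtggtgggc

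A CArG box, which SRF binds, was found in 1.77% of all windows, in 3 of the 11 immediate early genes with a window and in 3 of the 7 that were called. Egr1 held a pair of them in neighbouring, partly shared stretches.
Egr1, chr18:26736953-26737002, plus strand: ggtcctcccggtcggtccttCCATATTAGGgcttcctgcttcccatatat
Egr1, chr18:26736975-26737024, plus strand: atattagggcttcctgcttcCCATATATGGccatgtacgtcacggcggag
Klf6, chr17:69458650-69458699, minus strand: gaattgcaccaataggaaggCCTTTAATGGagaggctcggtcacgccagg
Zfp36, chr1:92799111-92799160, minus strand: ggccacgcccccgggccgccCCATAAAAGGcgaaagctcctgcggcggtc
A match is a description of these letters only, and binding was not measured here.

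Genes of ribosome production and protein upkeep lay mostly below 0 in the drug comparison, as did 6182 of all 11575 features. Over all features, 2.74% were called lower and 3.98% higher. Of 20 ribosome biogenesis genes, 18 lay below 0 with a median of -0.564, and 3 fell: the nucleolar genes Nop58 (-1.05 ± 0.347), Nop56 (-1.02 ± 0.340) and Brix1 (-0.933 ± 0.257). Srm, spermidine synthase of the polyamine pathway, had scores of -2.29 to 1.10 with rapamycin (median -1.04), 0.061 to 3.53 with paclitaxel (median 0.997) and -1.22 to 2.57 with DMSO (median 0.569), and fell by 2.22 ± 0.311. It was lower with rapamycin in 16 of 16 pairs. The spliceosome gene Snrpa fell by 1.96 ± 0.262, also in 16 of 16 pairs, and its difference from DMSO was -1.98 with rapamycin and -0.0198 with paclitaxel. Of 37 proteasome genes, 34 lay below 0 with a median of -0.327, and 2 fell, Psmb6 (-0.936 ± 0.231) and Psmd5 (-0.802 ± 0.263). Of 29 heat shock and chaperone genes, 3 fell, Ahsa1 (-1.11 ± 0.248), Cct6a (-1.11 ± 0.310) and Dnaja2 (-0.682 ± 0.203), and the inducible Hspa1a rose by 1.48 ± 0.426. The Hspa1a call was lost without run B (adjusted p = 0.0683), without run D (adjusted p = 0.249), with the compared groups fitted alone (adjusted p = 0.0664) and with the 4 run means as the unit (adjusted p = 0.106). Of 17 endoplasmic reticulum chaperone genes, the co-chaperone gene Dnajb9 rose (1.47 ± 0.484) and Ssr1, of the protein translocation channel, fell (-0.958 ± 0.299). Of 41 respiratory chain genes, 3 fell, the complex I genes Ndufa9 (-0.874), Ndufs3 (-0.835) and Ndufb9 (-0.606). Many of these few calls were lost when 1 run was left out, which also leaves fewer arrays, and the cause was not tested. Psmd5, Dnajb9, Ssr1 and Ndufb9 lost their call whichever 1 of the 4 runs was left out, Nop58, Nop56, Cct6a, Dnaja2 and Ndufa9 without run A, C or D, and Ndufs3 without run A, B or C. Brix1 lost it without run C or D, Psmb6 without run A or C and Ahsa1 without run A, while Srm and Snrpa kept it without each run.

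Of 28 glycolysis and HIF-1 target genes, 5 fell and none rose, against 2.74% of all features that were lower, but the list was split, with 13 members above 0 and 15 below. The glucose transporter gene Slc2a1 had scores of -3.35 to 0.979 with rapamycin (median -1.57), -2.32 to 3.10 with paclitaxel (median 0.363) and -2.40 to 4.13 with DMSO (median 0.587). It fell by 1.90 ± 0.481 (adjusted p = 0.00439), in 15 of 16 pairs, and lost its call without run D (adjusted p = 0.086). Bnip3, Ddit4, Pfkl of glycolysis (-0.925 ± 0.273) and the heme oxygenase gene Hmox1 (-1.75 ± 0.507) were the others. Hmox1 was also 1 of 3 NRF2 targets of 20 that fell, with Gsta1 (-1.78 ± 0.496) and Osgin1 (-1.69 ± 0.482). Of 28 lysosome and autophagy genes, the membrane protein gene Scarb2 rose (1.01 ± 0.239) and Sqstm1, an autophagy receptor gene, fell (-0.999 ± 0.249), with a list median of 0.235. Each is 1 of 28, a share near the 3.98% of all features that were higher and the 2.74% that were lower. Among 22 genes of mTOR and insulin signalling, 3 fell, Ddit4, Sesn2 and the kinase subunit gene Pik3r1 (-0.841 ± 0.271). The Pik3r1 call was lost whichever 1 of the 4 runs was left out (adjusted p between 0.0766 and 0.174), with the 4 run means as the unit (adjusted p = 0.0787) and with the 16 paired differences as the unit (adjusted p = 0.0981). Bnip3 and Hmox1 lost their call without run C or D, Gsta1 and Osgin1 without run A or B, and Sqstm1 without run A or C. The genes of the rapamycin targets had differences of 0.486 ± 0.252 for Mtor (adjusted p = 0.302) and 0.540 ± 0.234 for Fkbp1a, which encodes FKBP12 (adjusted p = 0.171). Of 28 extracellular matrix genes, 0 were called.

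Markers of other cells that aortic explants can hold did not pass the test. Of 8 endothelial markers, 7 leukocyte markers, 7 adventitial fibroblast markers and 7 cartilage and bone markers, 0 were called, with medians of -0.024, 0, 0.232 and 0.073. Of 8 smooth muscle identity markers, 0 were called, with a median of 0.241.

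The drug difference was then taken within each combination of insulin and glucose, 4 against 4 arrays. It called 78 features (0.674%) with insulin and 25 mM glucose, 44 (0.38%) with insulin and 5 mM glucose, 77 (0.665%) with vehicle and 25 mM glucose, and 46 (0.397%) with vehicle and 5 mM glucose. The difference of the drug difference between insulin and vehicle was called for 0 of 11575 features, with 392 at an unadjusted p under 0.05. That between 25 and 5 mM glucose was called for 0 features, with 811 at an unadjusted p under 0.05, and for 1 feature without run D. These terms have a larger SE than the drug difference itself, 0.856 against 0.428 for Tsc22d3. The 0 calls therefore do not show that the drug difference was equal across insulin or glucose. Tsc22d3 differed by 6.30 with insulin and 25 mM glucose, 5.43 with insulin and 5 mM glucose, 5.93 with vehicle and 25 mM glucose and 4.86 with vehicle and 5 mM glucose. Klf10 lay between 2.76 and 3.05 in all 4 combinations. Ddit4 differed by -3.69, -2.79, -1.40 and -3.39 in the same order of combinations, and the test of the insulin term (-0.845 ± 0.945) did not pass.

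**Figure D4:**
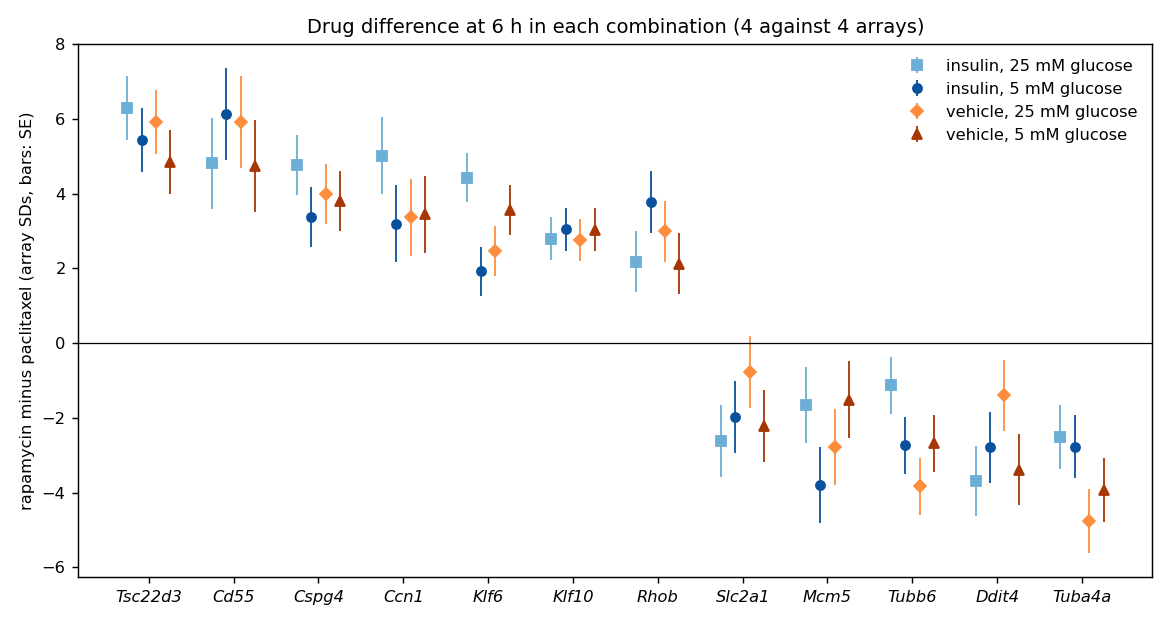
Rapamycin minus paclitaxel at 6 h (y axis, array SDs, bars are SE) for 12 genes in each of the 4 combinations of insulin and glucose, 4 against 4 arrays per point. All points of the 7 genes on the left lie above 0 and all points of the 5 on the right below it, with bars that mostly overlap within a gene.

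A matched mass concentration was available at 1 ng/mL, where rapamycin and paclitaxel differed in 70 features (0.605%), 43 higher (0.371%) and 27 lower (0.233%) with rapamycin. Of the called genes with the largest rises, Tsc22d3 differed by 2.00 ± 0.428 (adjusted p = 0.00314), Inhbb by 1.82 ± 0.424 and Bckdha, a branched-chain amino acid catabolism gene, by 1.61 ± 0.384. Among the genes called there, the largest falls were those of Ddit4 (-2.11 ± 0.473), the RNA-binding protein gene Hnrnpa2b1 (-1.56 ± 0.375) and Pdk1, a kinase that inhibits pyruvate dehydrogenase (-1.46 ± 0.395). Cd55 had a difference of 0.582 ± 0.614 there, and none of the 5 tubulin genes Tuba4a, Tubb6, Tuba1a, Tubb5 and Tuba8 was called, with values between -0.364 for Tuba4a and 0.692 for Tubb5. Calls at this dose numbered 20 without run A, 20 without run C and 1 with the 4 run means as the unit. At 0.01 ng/mL, 0 features were called and 375 had an unadjusted p under 0.05. In that arm a pair of rapamycin arrays, 1 with insulin and 1 with vehicle, correlated at 0.99993, so the means at this dose count 15 distinct arrays. The test at this dose, and the estimate of spread shared by all comparisons, kept both arrays of the pair. Along the doses Ddit4 averaged -0.0365 ± 1.03, -2.43 ± 1.13 and -2.17 ± 1.40 with rapamycin at 0.01, 1 and 100 ng/mL, and -0.251 ± 1.22, -0.314 ± 1.18 and 0.644 ± 1.41 with paclitaxel at 0.01, 1 and 1000 ng/mL (SD, n = 16, and 15 at the lowest rapamycin dose).

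**Figure D5:**
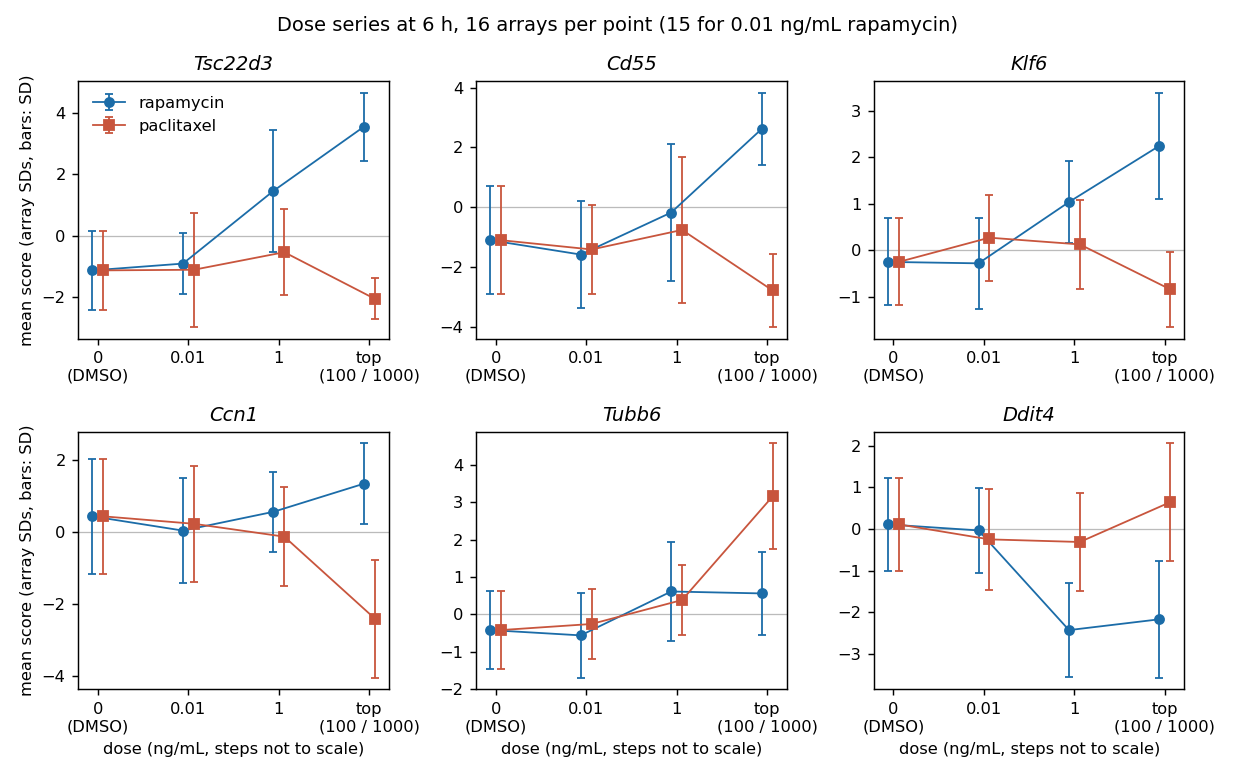
Mean score at 6 h (y axis, array SDs, bars are SD) of 6 genes at rising doses of rapamycin (blue circles) and paclitaxel (red squares), with DMSO at the left and the top doses of 100 and 1000 ng/mL at the right. Ddit4 with rapamycin is already low at 1 ng/mL, while Tubb6 and Ccn1 with paclitaxel depart from DMSO at the top dose.

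At 24 h the same doses differed in 766 features (6.62%). The title of 1 rapamycin array at 24 h is cut short, and it was placed in 25 mM glucose by its first letter. The change of the drug difference between the hours was called for 94 features (0.812%), 31 higher (0.268%) and 63 lower (0.544%) at 24 h than at 6 h. Tsc22d3 had a drug difference of 1.45 ± 0.428 at 24 h and 5.63 ± 0.428 at 6 h (difference between hours -4.18 ± 0.606). Tagln had 4.59 ± 0.527 at 24 h and 1.18 ± 0.527 at 6 h, and Myl9 had 3.87 ± 0.428 at 24 h and 1.27 ± 0.428 at 6 h. The protease gene Prss23 had 4.26 ± 0.378 at 24 h and 1.35 ± 0.378 at 6 h. The mitosis genes Cenpf and Pimreg passed the drug test at 24 h (-5.26 ± 0.808 and -5.38 ± 0.595) and not at 6 h (0.243 ± 0.808 and -0.32 ± 0.595), and the term between hours passed for both (-5.50 ± 1.14 and -5.06 ± 0.841). The tubulin genes Tubb6 and Tuba1a also passed that term, with larger drug differences at 24 h (-4.97 ± 0.383 and -5.18 ± 0.509) than at 6 h. Smaller differences at 24 h were those of Rhob (0.492 ± 0.412), Klf10 (1.38 ± 0.288), Srm (-0.185 ± 0.311) and Snrpa (-0.203 ± 0.262), which passed the term too. Cd55 and Ccn1 did not pass that term, with drug differences of 4.60 ± 0.614 and 4.08 ± 0.516 at 24 h. Leaving out a run gave 28 calls of this term without run A, 31 without run C, 22 without run D and 74 without run B.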

How the data were processed

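Per the series' design text and the labels, RNA of the cells (Cyanine-5) was hybridised beside pooled newborn rat RNA (Cyanine-3). The same text says that the authors normalized by loess, filtered dim features, imputed missing values, removed components linked to the replicate runs and standardized the data. The deposited values are scores with mean 0 and SD 1 per array. No source used here gives the log base or any gene-wise scaling. Removing components can narrow the spread between runs, so p-values may be too small. The fit had been planned for log2 ratios and was applied to the scores unchanged.

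With limma 3.58.1 (R 4.3.3), the model for all 224 arrays held a mean for each of 56 groups plus a run block (165 residual degrees of freedom, median residual SD 0.811), eBayes, and Benjamini-Hochberg adjustment over 11575 features, two-sided, called under 0.05. The pairing rests on the run letters in the titles and on the design text, which speaks of replicate runs. Deviations of arrays from their groups' means correlated at 0.0632 within a run and -0.021 between runs. Alternatives changed the block, the samples fitted, the unit, the array scale, the moderation and the features tested, and left out each run. Tested on simulated data of the 11575 features for the comparison of the top doses at 6 h, the fit called 56% of 100 features shifted by 1 array SD and 96% of 100 shifted by 2, with 13 false calls.

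Platform annotation gave 1 symbol to 7473 features, several to 2 and none to 4100, for 6502 genes, and 7461 Entrez identifiers were found in RefSeq with 0 symbols updated. The first feature stood for a gene, although 854 genes had several features. By any of their features, 496 genes were called, against 453 by the first feature, so a gene given as not called may be called by another feature. No gene was called in opposite directions. Genes are named by the 15 largest rises and falls with 1 sign in all runs, 3 each way for interactions, the matched dose and the hour, up to 3 members each way per list, and a fixed set of drug, tubulin, cell cycle and contractile genes. Other members of described lists are named with them, chosen after their values were seen. Members and lists were chosen with earlier results of these data known, so list counts beside the shares over all features are a description only.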

Additional observations from a re-analysis of the deposited data

Results flagged for a closer look

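Among 80 named genes, the drug difference of 1 run stood apart from the other runs for 3 genes, where chance flags about 1 in 20. Ahsa1 had -1.98 in run A, Ndufs3 had 0.019 in run D and Pimreg had 1.65 in run D.

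The drug difference at 24 h minus that at 6 h passed its own test for 94 features. Among genes with a symbol, the 3 largest called changes each way were those of Tsc22d3 (-4.18), Tagln (3.41), Myl9 (2.6), Prss23 (2.91), Cenpf (-5.5) and Pimreg (-5.06). Other named genes that passed it were Tubb6 (-2.37), Tuba1a (-3.14), Rhob (-2.28), Klf10 (-1.53), Srm (2.03) and Snrpa (1.75).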

How the results depend on the processing

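The count of features called between the drugs was 778 and lay within 1.5 times of that in most settings, with 743 with no replicate block and 904 with the run by hour as the replicate block. It was 265 with the 4 run means as the unit and 516 where only features with 1 symbol were tested, which is a smaller set of 7473, and 380 to 668 when 1 run was left out. With the 4 run means the counts were 163 for rapamycin against DMSO, 1 for paclitaxel against DMSO, 1 for the drugs at 1 ng/mL and 13 for the hour term. Leaving out 1 run gave 212 to 482, 9 to 22, 20 to 51 and 22 to 74 for these comparisons, and 0 to 1 for the glucose term. The cause was not tested, beyond the fewer arrays. The insulin term stayed at 0 in every setting run for it. Of 1120 recomputed differences of the 80 named genes, 969 kept direction and call, 140 lost the call, 10 gained it, and 1 reversed, Cenpf without run D, which ranged from -0.156 to 0.626 when 1 run was left out. Of the 68 named genes called, 27 kept the call in every setting, and 37 kept it without run A. The number of arrays limits precision, and signal over background was not used here.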
